A study of Rattus norvegicus with 16 samples.

Results

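The mitochondrial respiratory chain genes measured here comprised 84 genes of the 10411 that the array reads with a probe set of a single gene symbol. They were read by 89 probe sets, out of 15866 that were not array controls. They were chosen by symbol alone: names starting with Nduf, Uqcr, Atp5, Cox4, Cox5, Cox6, Cox7 or Cox8, plus Sdha, Sdhb, Sdhc and Sdhd. Signal was read in total RNA from the lungs of spontaneously hypertensive (SH) rats, inbred for raised blood pressure, and of Sprague Dawley (SD) rats, an outbred stock. Both kinds breathed either air or sulfur dioxide (SO2), an irritant gas, which gave the groups SH air, SH SO2, SD air and SD SO2. Each group had 4 arrays, which the series describes as biological replicates. The sources used here give no dose, length of exposure, time of sampling or age, and a difference between an inbred strain and an outbred stock cannot be assigned to blood pressure.

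The respiratory chain lies in the inner mitochondrial membrane. Complex I (NADH dehydrogenase) and complex II (succinate dehydrogenase) pass electrons to ubiquinone, complex III (the cytochrome bc1 complex) passes them to cytochrome c, and complex IV (cytochrome c oxidase) passes them to oxygen. The proton gradient made on the way drives complex V (ATP synthase). Sulfite, formed when SO2 dissolves in water, is turned into sulfate by sulfite oxidase (Suox), which also hands its electrons to cytochrome c. Several cytochrome c oxidase subunits exist as a widely expressed form and as a form found mainly in heart and skeletal muscle, and Cox7a1, Cox6a2 and Cox8b encode muscle forms.

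By complex, the members were 35 probe sets (34 genes) of complex I and 5 (5 genes) of its assembly factors, whose symbols also start with Nduf. Complex II had 5 probe sets (4 genes), complex III had 7 (7 genes), complex IV had 18 (18 genes) and complex V had 19 (16 genes). The complex IV set includes Ndufa4, now counted as a subunit of that complex, its relative Ndufa4l2 and the pseudogene Cox6c-ps1, whose probe set may share signal with Cox6c. A further 7 probe sets carry several symbols of which the rule names at least 1, and these are not members. Cox7a2, the widely expressed partner of Cox7a1, and Cycs, cytochrome c itself, had no probe set with a single symbol.

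Most of these probe sets were bright. Mean signal over the 16 arrays had a median of 1404 across the members and of 268.2 across all probe sets, and 76 of the 89 members (85.4%) were above that second value, 45 of them (50.6%) among the brightest 10%. The residual standard deviation of log2 signal had a median of 0.177 over the members tested and of 0.247 over all probe sets tested. With the dimmest 30% of probe sets left out, 86 member probe sets for 83 genes were tested. The exceptions were Cox6b2, a testis form of subunit 6b, at 4 to 38.8, and 2 of the 3 probe sets for Atp5if1, the ATP synthase inhibitor, with mean signals of 71.6 and 19.3.

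The 16 arrays had similar median signals, from 250.2 to 281.8, and the summed signal of alveolar type II cell markers, a check on the labelled lung tissue, lay between 98090 and 131100. The array labelled SD air replicate 2 stood apart from its group for Terf2ip, a telomere protein gene chosen here after its values were seen. Its Terf2ip signal was 693.8, whereas its group's other arrays read 1982.2, 2180 and 2363.4 and the SH air arrays 424.8 to 733.2. Its Cox7a1 signal also lay within the SH range. Whether this array carries the right label was not tested, so the SD air values and the strain differences rest on a label in doubt. Called strain differences are therefore given with and without it, except for the cell type markers Car3 and Cyp2f4. For differences not called, the value without it is given where the text turns on it. Without it 86 of the 11106 probe sets tested passed between strains in air (0.774%), against 0 with it. In lung tissue fewer cells of a type and less RNA per cell cannot be told apart, and p-values measure the spread between the samples labelled as replicates.

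Promoter sequence was read for the members from RefSeq (rat assembly GRCr8), which held 76 of them. In the 250 bases before the start, the nuclear respiratory factor 1 motif (GCGCA and GCGC with any 1 base between them, all motifs on either strand) occurred in 12 member promoters (15.8%) and in 3.75% of all 33469 promoters. The ETS family motif CCGGAAG, the core bound by nuclear respiratory factor 2, occurred in 20 (26.3%) against 7.27%. Counts for the CCAAT box (CCAAT) were 25 (32.9%) against 34%, for the TATA box (TATAAA) 8 (10.5%) against 12.9%, and for the E box (CANNTG), bound by muscle regulators among others, 40 (52.6%) against 65.5%. A MEF2 motif (CTAAAAATA) was found in 1 member promoter (1.32%), that of Cox6a2, against 0.442%. The promoters of Cox7a1, the member that differed between strains, of Cox6a2, another muscle form, and of Cox8a, a widely expressed subunit, are shown to compare them. They lie at chr1:94568966-94569215 (plus strand), chr1:192219717-192219966 (minus strand) and chr1:213833624-213833873 (minus strand), and capitals mark the motifs.
Cox7a1: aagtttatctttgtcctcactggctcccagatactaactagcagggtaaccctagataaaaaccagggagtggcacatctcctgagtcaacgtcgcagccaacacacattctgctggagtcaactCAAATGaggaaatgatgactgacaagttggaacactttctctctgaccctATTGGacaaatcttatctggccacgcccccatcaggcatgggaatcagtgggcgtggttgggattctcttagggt
Cox6a2: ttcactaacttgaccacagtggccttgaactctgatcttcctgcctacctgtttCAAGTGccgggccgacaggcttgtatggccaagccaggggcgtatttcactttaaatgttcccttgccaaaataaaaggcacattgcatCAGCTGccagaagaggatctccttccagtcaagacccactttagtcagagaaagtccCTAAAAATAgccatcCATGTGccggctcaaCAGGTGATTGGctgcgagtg
Cox8a: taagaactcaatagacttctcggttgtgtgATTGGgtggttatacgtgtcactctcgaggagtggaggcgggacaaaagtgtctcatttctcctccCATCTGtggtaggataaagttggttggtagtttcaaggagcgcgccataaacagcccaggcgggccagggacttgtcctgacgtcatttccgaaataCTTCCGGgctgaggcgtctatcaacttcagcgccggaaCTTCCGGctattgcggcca
The Cox7a1 window held 1 E box, 125 bases before the start, and 1 CCAAT box, 75 bases before it. The Cox6a2 window held the MEF2 motif 50 bases before the start, 4 E boxes and 1 CCAAT box, the last of which follows an E box directly. Cox8a had 2 ETS motifs, 57 and 19 bases before its start, 1 CCAAT box and 1 E box. A match is a run of letters and shows no binding.

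Cox7a1 was the respiratory chain gene that differed between the strains. Signal in SH air was 612.2, 700.6, 468.2 and 526.5, and in SH SO2 it was 552.6, 638.8, 470.7 and 582.1. Signal in SD air was 953.8, 562.4, 834.3 and 1096.1, and in SD SO2 it was 950.8, 737.7, 957.6 and 823.7. All SD arrays but replicate 2 in air were above all SH arrays, and that array lay within the SH range. The group means were 576.9 ± 101 in SH air and 561.0 ± 70.1 in SH SO2, against 861.6 ± 226 and 867.4 ± 106 in the matching SD groups (SD, n = 4 each). Averaged over exposures, the SH level was lower by -0.58 on the log2(signal + 16) scale (standard error 0.124, 95% interval -0.84 to -0.32, adjusted p = 0.0175, limma with Benjamini-Hochberg adjustment over 11106 probe sets). It was the only one of the 86 member probe sets to pass at 0.05 (1.16%), and 1.53% of all probe sets passed in this comparison, 0.801% as lower.

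In SO2 alone the 4 SH values for Cox7a1 lay below the 4 SD values, with a difference of -0.61 (standard error 0.176, limma adjusted p = 0.133). In air the difference was -0.54 (standard error 0.176, adjusted p = 0.438). Neither passed the threshold with all arrays. Without SD air replicate 2 both did, at -0.73 in air (adjusted p = 0.0327) and -0.61 in SO2 (adjusted p = 0.047), and the mean over exposures was -0.67 (adjusted p = 0.000993). That array was singled out after its values were seen and had the lowest SD signal for Cox7a1. Leaving it out therefore had to enlarge the difference in air and the mean, and these values are no independent support. The SO2 comparison uses no SD air array, so its difference stayed the same. Only the shared estimate of spread and the adjustment could change there. SO2 gave no detectable Cox7a1 response, with changes of -0.031 in the SH strain and 0.042 in the SD strain (adjusted p = 0.989 and 0.968). The call was lost when the serial title number entered as a covariate (-0.52, adjusted p = 0.153) and without SH air replicate 3, the lowest array of its group (-0.53, adjusted p = 0.0518).

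The other muscle forms did not pass the test. In SH rats Cox6a2 read 113.5, 220.4, 282.8 and 190.1 with air and 202.7, 178.3, 237.1 and 219.9 with SO2, and in SD rats 149.3, 169.8, 216.8 and 141.7 with air and 178.2, 148.5, 27.3 and 220.4 with SO2. The 4 groups overlapped, and 1 SD SO2 array was far below the rest. In SH rats Cox8b read 240, 210, 306.5 and 255 with air and 187.1, 388.4, 244.1 and 243.5 with SO2, and in SD rats 187.8, 290.5, 276.4 and 205.8 with air and 160.7, 198.5, 134.6 and 251.6 with SO2. These groups overlapped as well. Averaged over exposures, the SH minus SD difference was 0.46 for Cox6a2 (adjusted p = 0.555) and 0.27 for Cox8b (95% interval -0.06 to 0.60, adjusted p = 0.553), and neither was called. Without SD SO2 replicate 3, the array at 27.3, the Cox6a2 difference was 0.19, and without SD air replicate 2 the values were 0.47 and 0.32.

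Markers of muscle were read beside these isoforms. Of 24 heart and skeletal muscle genes 23 were measured and 14 tested, with a summed signal over those measured of 4756 to 6595 with air and 5051 to 7117 with SO2 in SH rats, and of 4444 to 8105 and 3595 to 5188 in SD rats. Averaged over exposures, 13 of the 14 were above 0 (50.4% of all probe sets were), with a median of 0.31 and 0 called. The most abundant were Myl7, an atrial myosin light chain, and Myh6, a cardiac myosin heavy chain, with group means of 570.6 to 950.8 and 517 to 923.1. By exposure, 8 of the 14 were above 0 in air, with a median of 0.034, and 13 in SO2, with a median of 0.48. Cox7a1 was below 0 in both exposures. In SO2 alone Tcap, a sarcomere protein, was higher in SH rats (1.08, limma adjusted p = 0.0407, and 0.0447 without SD air replicate 2). It was 1 of the 14, and 0.81% of all probe sets were called in SO2. For smooth muscle and pericytes 12 of 12 genes were tested. Averaged over exposures, 3 were above 0 and the median was -0.185, again with 0 called. By exposure, 1 of the 12 was above 0 in air, with a median of -0.187, and 4 in SO2, with a median of -0.152. Most of these genes were thus below 0 in both exposures, as Cox7a1 was. Their summed signal was 6570 to 8089 with air and 8013 to 8560 with SO2 in SH rats, and 7150 to 12350 and 7270 to 10510 in SD rats. Of 6 adipocyte markers tested 1, the carbonic anhydrase Car3, was higher in SH rats averaged over exposures (0.49, adjusted p = 0.0193). Its means were 336.1 in SH air and 349.1 in SD air, but 587.3 in SH SO2 and 277.9 in SD SO2. The difference in SO2 was 1.02 (limma adjusted p = 0.000975). Of 3 club cell markers 1, the cytochrome P450 Cyp2f4, was lower averaged over exposures (-1.05, adjusted p = 2.84e-05). SD air replicate 2 had its lowest SD signal, 988.3, which lay above all SH arrays, at 567.4 to 898. In the averaged comparison 0 markers were called of alveolar type I (6 tested), alveolar type II (7), ciliated (5), macrophage (2) and erythroid (3) cells. There 1.53% of all probe sets were called. The part of these cells in the Cox7a1 difference was not tested.

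**Figure D1:**
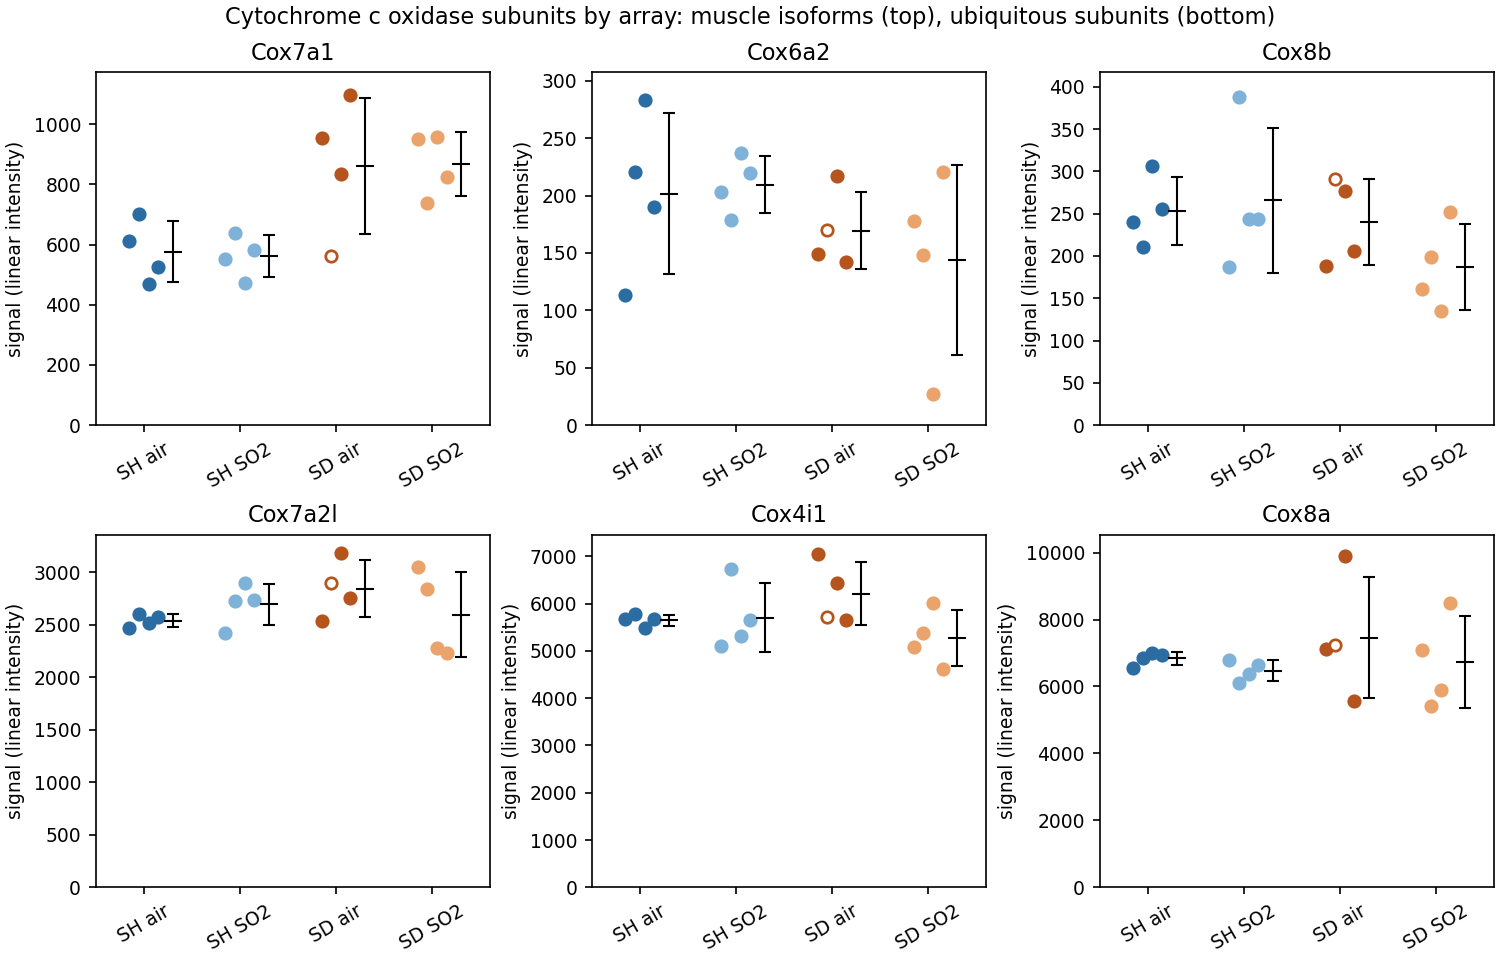
Signal (linear intensity) on each of the 16 arrays for 3 muscle forms of cytochrome c oxidase subunits (top) and for Cox7a2l, Cox4i1 and Cox8a (bottom). Bars show mean and standard deviation of 4 arrays per group. Cox7a2l helps join complexes III and IV and is not the widely expressed partner of Cox7a1. The open circle is SD air replicate 2. For Cox7a1 the SH arrays lie at 468.2 to 700.6 and all SD arrays but the open circle lie at 737.7 or above, whereas the groups overlap in the other 5 panels.

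None of the widely expressed cytochrome c oxidase subunits passed between strains. Cox4i1, the common form of subunit 4, had group means of 5652 ± 116 with air and 5701 ± 725 with SO2 in SH rats, and 6212 ± 660 and 5276 ± 586 in SD rats, and its strain difference averaged over exposures was -0.010 (adjusted p = 0.982). Its lung form Cox4i2 differed by -0.11 (adjusted p = 0.807). Cox7a2l, a protein that helps join complexes III and IV, differed by -0.047 (adjusted p = 0.893). For Cox5a the difference was -0.044, for Cox5b -0.115, for Cox6a1 -0.145, for Cox6b1 0.11, for Cox6c -0.041, for Cox7b -0.068, for Cox7c 0.040 and for Cox8a -0.064, with adjusted p-values from 0.509 to 0.95. Ndufa4 differed by 0.033 and Ndufa4l2, a form induced by low oxygen, by -0.021. Among the 17 complex IV probe sets tested, 11 were below 0 and 1, Cox7a1, was called.

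With SO2 in SH rats, 0 of 86 members passed at an adjusted p under 0.05 in limma, and 0% of all probe sets passed. At an unadjusted p under 0.05 there were 3 members (3.49%), against 4.84% of all probe sets. The median change was -0.015 over the members and 0.017 over all. The 95% interval lay within 1.5-fold either way for 76 of 86 members (88.4%), against 63.2% of all probe sets, so larger changes were outside the interval for those 76. Ndufa5, an accessory subunit of complex I, read 386.4, 360.7, 346.6 and 398.3 in air and 337.3, 275.9, 265 and 308.1 in SO2. Its SO2 arrays were all below its air arrays (-0.32, adjusted p = 0.949). Groups did not overlap for 2 members (2.33%, against 4.17% of all probe sets), the other being Uqcrq. The values for Ndufa4 and Ndufb6, the latter an accessory complex I subunit, were -0.28 and 0.27, both with an adjusted p of 0.949.

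With SO2 in SD rats, 0 of 86 members passed the same limma test, and 0% of all probe sets passed. There were 4 members at an unadjusted p under 0.05 (4.65%, all lower), against 8.24% of all probe sets, 3.83% as lower. The median change was -0.062, with 55 of 86 members below 0 (64%), against a median of 0.017 and 46.6% over all probe sets. The members were measured on the same arrays and are not independent. Their count below 0 was 51 without SD SO2 replicate 4 and 61 without SD SO2 replicate 1. The 95% interval lay within 1.5-fold for 74 members (86%), against 60.1%. The 4 were Uqcrq, Cox6a1 (-0.25, adjusted p = 0.576), Cox4i1 (-0.235, adjusted p = 0.589) and Ndufb2 (-0.33, adjusted p = 0.591), an accessory complex I subunit. Without SD air replicate 3, which was high for both, Ndufb2 was at -0.15 and Cox6a1 at -0.15. Cox6a1 read 3629.8, 3708.4, 4704.2 and 3409.9 in SD air and 3351.5, 3283.3, 3406.1 and 2872.8 in SD SO2, with no overlap. Groups did not overlap for 3 members (3.49%, all lower, against 3.54% of all probe sets, 1.47% as lower), the others being Ndufa8 (-0.28) and Ndufc2 (-0.185), named after their values were seen. Averaged over both strains, 0 members passed with SO2, 0 had an unadjusted p under 0.05 (8.45% of all probe sets did), 0% of all probe sets passed, and the median was -0.044.

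Complex III held the largest difference in response between the strains among the members. Uqcrq, subunit VII of the complex, read 1839.5, 1542.7, 1805.8 and 1532.4 in SH air and 1886.4, 2284.3, 2197.9 and 1849 in SH SO2. It read 2156.9, 1848.6, 2803.1 and 2785 in SD air and 2032.8, 1691.5, 1651.8 and 1089.1 in SD SO2. All SH arrays in SO2 were above all SH arrays in air, and most SD arrays in SO2 were below those in air, with an overlap at SD air replicate 2. The change was 0.29 for SH rats (standard error 0.165, adjusted p = 0.949) and -0.58 for SD rats (standard error 0.165, adjusted p = 0.378). Their difference was 0.86 (standard error 0.233, 95% interval 0.38 to 1.35, unadjusted p = 0.00147, adjusted p = 0.959), so it did not pass across all probe sets. Without SD air replicate 2 the SD change was -0.695 and the difference 0.98 (adjusted p = 0.258 and 0.735).

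The other complex III subunits had smaller values, none of them called. In SD rats 7 of 7 complex III probe sets were below 0 in SO2 (46.6% of all probe sets were), with a median of -0.106, and in SH rats 6 of 7 were above 0, with a median of 0.041. The difference between strains was above 0 for 7 of 7, against 50.2% of all probe sets, and 0 were called. These 7 were measured on the same arrays and are not independent. Cyc1, cytochrome c1 of this complex, is outside the symbol rule and is not among the 7. It was at -0.19 in SD rats and -0.099 in SH rats, with a difference of 0.092. The count in SD rats dropped to 6 of 7 when SD air replicate 3 or when replicate 1 or 4 of SD SO2 was left out. The count for the difference dropped to 6 of 7 when replicate 1 or 3 of SD air, replicate 4 of SD SO2 or replicate 2 of SH SO2 was left out. Uqcrfs1, the Rieske iron-sulfur protein, was at -0.27 in SD rats and 0.021 in SH rats, and the SD value was -0.12 without SD air replicate 3. The core proteins Uqcrc1 and Uqcrc2 were at -0.12 and -0.042 in SD rats and at 0.055 and -0.007 in SH rats. Without SD air replicate 3 the SD value of Uqcrc1 was 0.075, and without SD SO2 replicate 4 that of Uqcrc2 was 0.020. Over all members, the strain difference in response was called for 0 of 86 and for 0% of all probe sets, 3 members (3.49%) had an unadjusted p under 0.05 against 4.65%, and the median was 0.065 against 0.001. The 3 were Uqcrq, Ndufb6 (0.48) and Ndufa5 (-0.46).

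**Figure D2:**
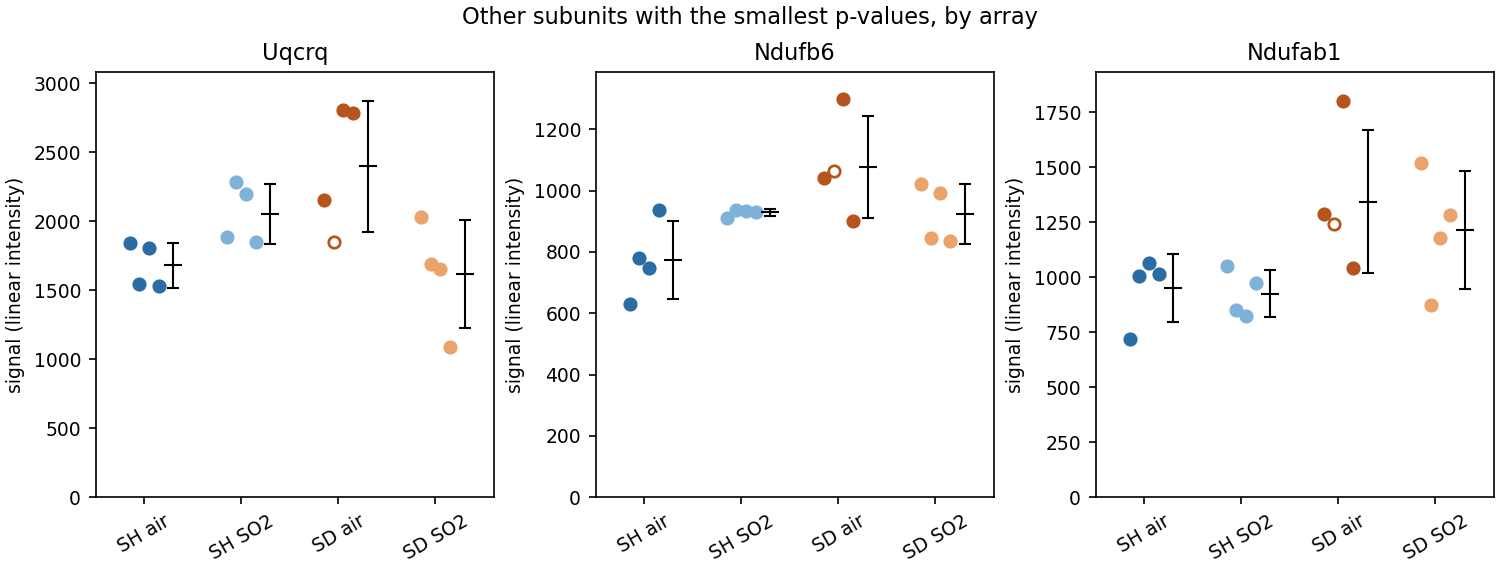
Signal (linear intensity) by array for Uqcrq of complex III and for Ndufb6 and Ndufab1 of complex I, with bars for mean and standard deviation of 4 arrays and an open circle for SD air replicate 2. Uqcrq is highest in SD air (mean 2398) and lowest in SD SO2 (1616), and Ndufab1 has means of 950.3 and 925.4 in SH groups against 1344 and 1213 in SD groups, with overlap.

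Complex I gave no called difference between strains. In air, 0 of 86 members and 0% of all probe sets passed, 7 members (8.14%), all lower in SH rats, had an unadjusted p under 0.05, against 6.38% of all probe sets and 3.07% as lower. Groups did not overlap for 4 members (4.65%, against 4.02%), namely Uqcrq (-0.49) and Uqcrfs1 (-0.32), lower in SH rats, and Ndufa9 (0.23) and Ndufs1 (0.16), higher, of which Uqcrfs1 and Ndufa9 were named after their values were seen. Ndufb6 read 628.7, 780.7, 747.6 and 935.1 in SH air and 1041.4, 1064.1, 1298.7 and 899.5 in SD air. Except for 1 array in each group, the SH values were the lower ones (-0.47, standard error 0.131, adjusted p = 0.295, and 0.213 without SD air replicate 2). The Uqcrq difference in air had an adjusted p of 0.469, and of 0.13 without that array (-0.61). In SO2 the Ndufb6 means were close, 928.9 ± 11.9 in SH rats and 923.9 ± 97.1 in SD rats, with a difference of 0.013. Ndufab1, the mitochondrial acyl carrier protein, which is a complex I subunit and also serves fatty acid synthesis, read 720.1, 1005.7, 1063.1 and 1012.3 with air and 1051, 852.3, 822.4 and 975.9 with SO2 in SH rats. In SD rats it read 1286.8, 1242.6, 1802.6 and 1042.6 with air and 1517.8, 872.3, 1176.5 and 1284.3 with SO2. The SD arrays at 1042.6 and 872.3, the latter replicate 2 in SO2, lay within the SH range, and the others were above it. Averaged over exposures its difference was -0.42 (standard error 0.125, adjusted p = 0.112), and it passed only without replicate 2 in SO2 (-0.495, adjusted p = 0.0369). Without SD air replicate 2 it was -0.44 (adjusted p = 0.106).

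No core subunit of complex I was called averaged over exposures. Ndufs1, the large iron-sulfur subunit, differed by 0.17 (limma adjusted p = 0.39), the highest value in the complex. Ndufs3, Ndufs7, Ndufs8, Ndufv1 and Ndufv2 were not called either. The 35 probe sets split into 17 above and 18 below 0 with a median of -0.009. The value furthest from 0, -0.55, belonged to Ndufb8, named after its values were seen, with signals of only 76.3 to 386.8. Among the assembly factors Ndufaf4, which acts early in building the complex, was at 0.26 (adjusted p = 0.352). In SO2 its SH arrays, at 274.8 to 318.6, were all above its SD arrays, at 168.8 to 266.6.

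In SO2 the strains differed in 0 of 86 members at an adjusted p under 0.05, against 0.81% of all probe sets, and in 6 members (6.98%) at an unadjusted p under 0.05, against 10.1%. Groups did not overlap for 2 members (2.33%, against 5.58%), Cox7a1 and Ndufaf4. The 95% interval for the difference averaged over exposures lay within 1.5-fold for 79 of 86 members (91.9%), against 83.4% of all probe sets. The median of that difference was -0.034 over the members and 0.002 over all.

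No succinate dehydrogenase gene passed in any comparison. Sdha, the flavoprotein, had means of 1995 ± 107 with air and 1850 ± 136 with SO2 in SH rats, and of 1991 ± 96.5 and 1802 ± 275 in SD rats. The strain differences averaged over exposures were 0.025 for Sdha, -0.055 for the iron-sulfur subunit Sdhb, 0.091 for the membrane anchor Sdhc and 0.038 for the anchor Sdhd, whose other probe set gave -0.034. The SO2 changes in SH and SD rats were -0.11 and -0.15 for Sdha, -0.017 and 0.047 for Sdhb, 0.11 and -0.25 for Sdhc, and 0.003 and -0.115 for Sdhd. No adjusted p of these was below 0.672.

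ATP synthase had no called member either. Atp5f1b, the catalytic beta subunit, was at -0.22 with SO2 in SD rats (adjusted p = 0.63) and at -0.071 in SH rats, and its strain difference averaged over exposures was -0.098. The strain differences of the 17 probe sets tested lay between -0.24 and 0.18, with 7 above and 10 below 0. Values with SO2 lay between -0.24 and 0.51 in SH rats and between -0.22 and 0.19 in SD rats. The 0.51 came from the dimmer of 2 probe sets for Atp5me, a membrane subunit, and the brighter one gave 0.075.

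**Figure D3:**
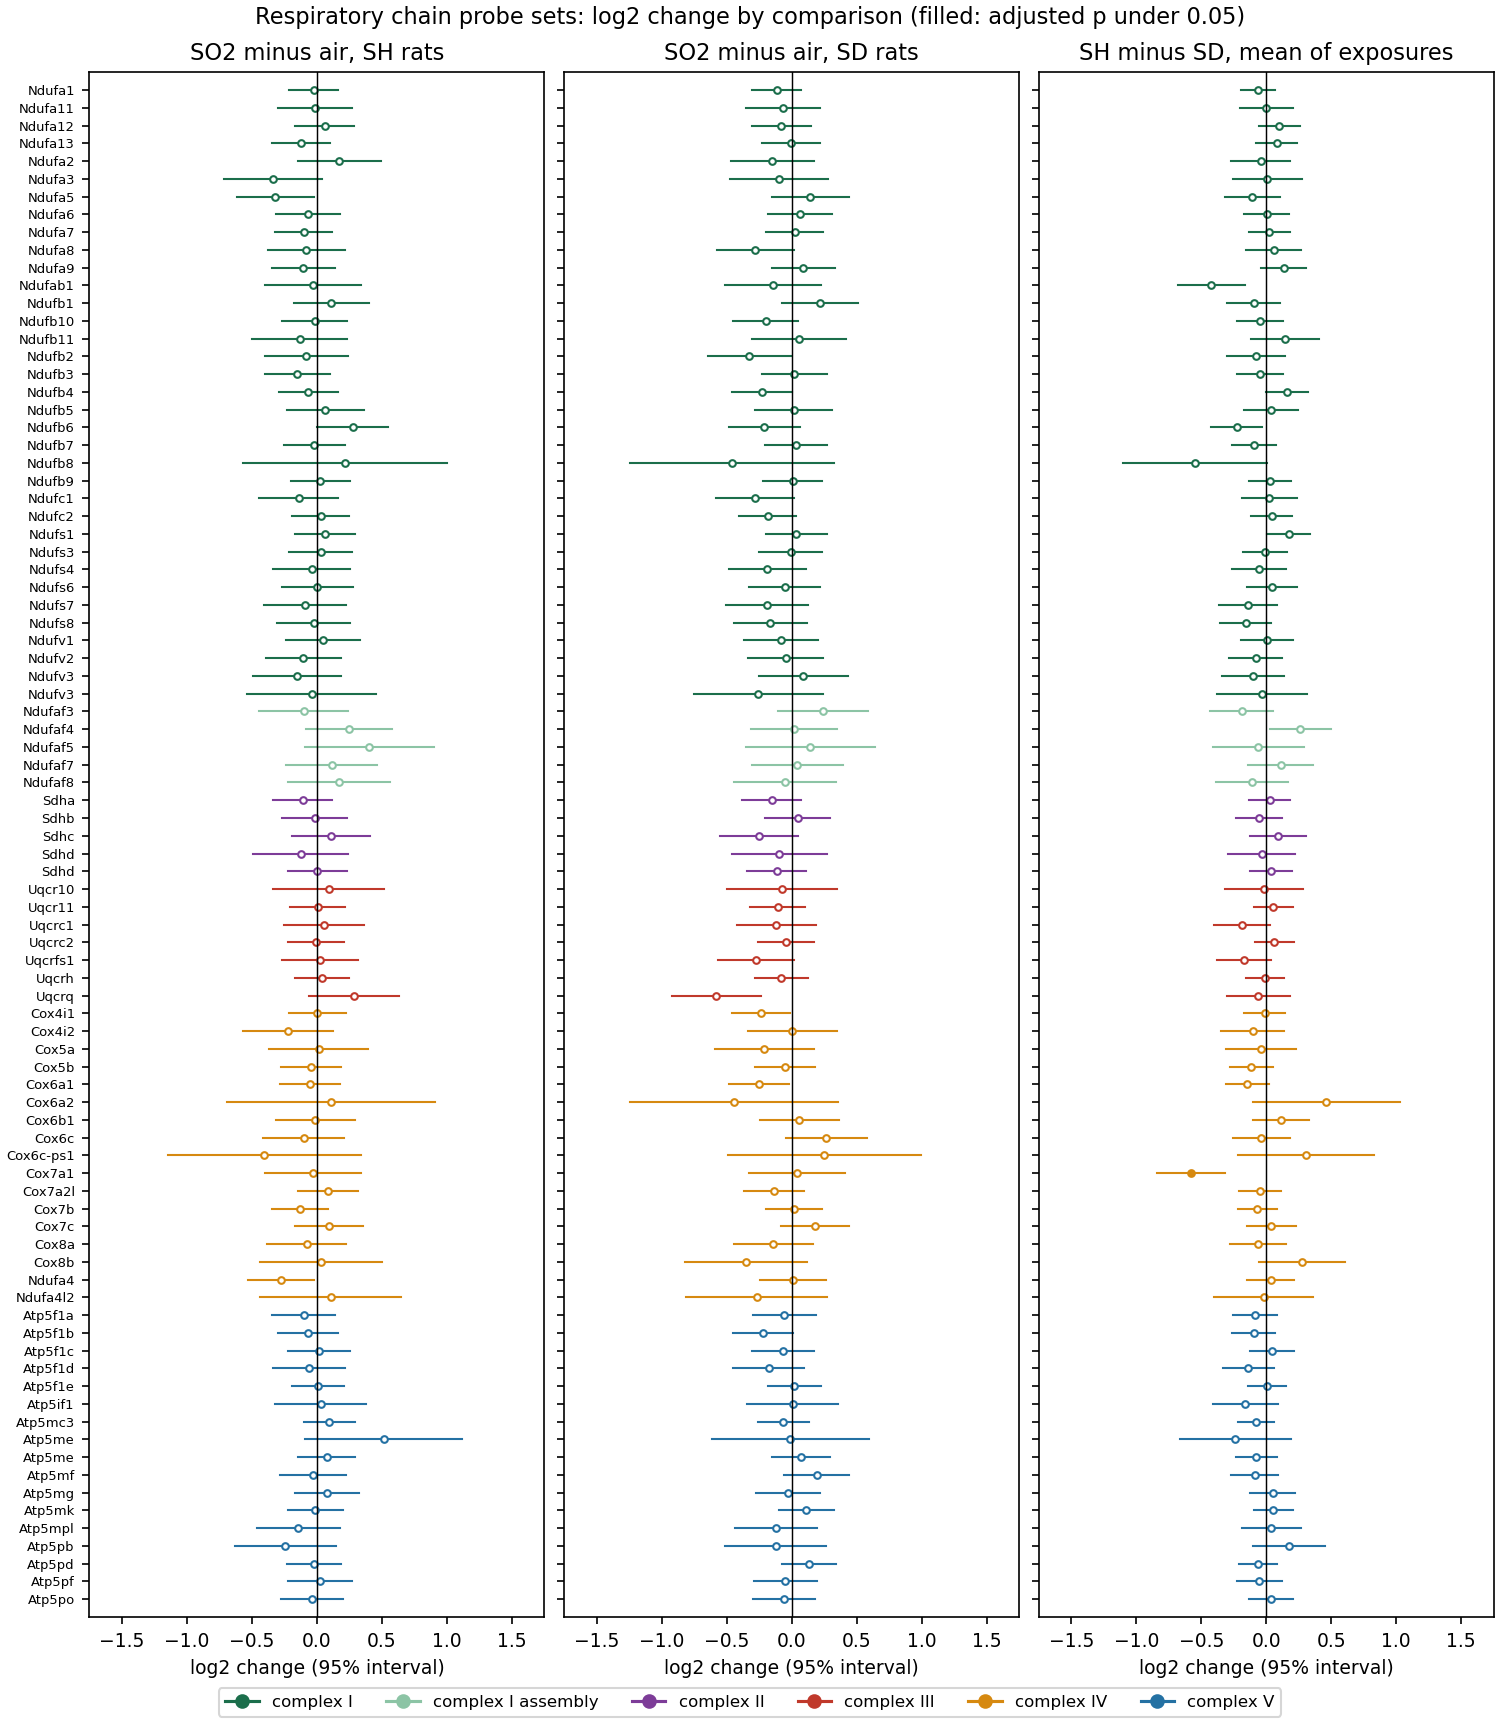
Log2 change with its 95% interval for each of the 86 member probe sets tested, coloured by complex, for SO2 against air in SH rats, SO2 against air in SD rats, and SH against SD rats averaged over exposures. Filled points have an adjusted p under 0.05. Cox7a1 at -0.58 in the third panel is the only filled point, and the medians of the 3 panels are -0.015, -0.062 and -0.034.

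Sulfite oxidase, which feeds electrons to cytochrome c, read 427.1, 414.6, 384.9 and 430.6 in SH air and 373.3, 359.8, 351.4 and 366.2 in SH SO2. It read 299.9, 366.8, 270.8 and 393.4 in SD air and 316.5, 378.8, 327.7 and 185.6 in SD SO2. All 4 SH arrays in SO2 were below all 4 in air, whereas the SD groups overlapped. The change was -0.18 for SH (adjusted p = 0.96) and -0.16 for SD rats (adjusted p = 0.857), the latter 0.044 without SD SO2 replicate 4, the lowest array, and the strain difference averaged over exposures was 0.305 (standard error 0.124, adjusted p = 0.304), or 0.33 without SD air replicate 2 (adjusted p = 0.257). Cyc1, cytochrome c1 of complex III, was at -0.099 in SH rats and -0.19 in SD rats (adjusted p = 0.967 and 0.729).

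Other mitochondrial genes were read from lists chosen with earlier results of these data known. With SO2, 0 genes were called in either strain in the lists of assembly and translation factors (25 tested), the tricarboxylic acid cycle with pyruvate dehydrogenase (14), fatty acid oxidation (18), biogenesis regulators (6), carriers and channels (20) and glycolysis (13). Averaged over exposures, SH and SD rats differed in 1 tricarboxylic acid cycle gene and 1 carrier list gene, and in 0 genes of the other 4 lists. In that comparison 1.53% of all probe sets were called. Ckmt1, the mitochondrial creatine kinase, which passes energy from ATP to creatine, was higher in SH rats. With air it read 610, 555.9, 876.4 and 640.2 in SH rats and 251.7, 492, 389.6 and 468.7 in SD rats. With SO2 it read 680.1, 1086.4, 1276.8 and 855.7 in SH rats and 247.7, 209, 192 and 441.2 in SD rats. No SD array reached the lowest SH array, and the difference averaged over exposures was 1.28 (standard error 0.175, adjusted p = 0.000373). In SO2 it was 1.815 (adjusted p = 0.000503) and in air 0.74 (adjusted p = 0.466). Without SD air replicate 2 these were 1.33 (adjusted p = 0.000203), 1.815 (adjusted p = 4e-04) and 0.85 (adjusted p = 0.22).

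Pdhb, the beta subunit of pyruvate dehydrogenase, was lower in SH rats, with means of 1199 ± 128 in air and 1211 ± 129 in SO2 against 1549 ± 168 and 1475 ± 98.4 in SD rats. The difference averaged over exposures was -0.32 (standard error 0.0805, adjusted p = 0.0478), close to the threshold, or -0.35 without SD air replicate 2 (adjusted p = 0.0236), and it passed under 11 of 28 other analysis choices. It was lost when any of 12 of the 16 arrays was left out in turn (largest adjusted p 0.117, without SH air replicate 3). Cpt1a, the liver form of carnitine palmitoyltransferase, which admits fatty acids to mitochondria, read 781.7 to 962.5 in SH air and 1134.2 to 1307 in SH SO2, a difference of 0.45 that did not pass (adjusted p = 0.653).

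Single arrays carried many of the extremes. SD air replicate 3 was the highest array for 19 of the 86 members (22.1%, against 10.9% of all probe sets). SD SO2 replicate 4 was the lowest for 15 (17.4%, against 10.4%). SH SO2 replicate 1 was the lowest for 12 (14%, against 6.05%) and had the highest beta-actin ratio, 3.12. That ratio sets signal near the end of the transcript over signal near its start, a reading of RNA quality. It ran from 1.29 to 3.12 in SH SO2 and from 1.47 to 2.94 in SD SO2. With air it ran from 1.49 to 2.36 in SH and from 1.4 to 1.76 in SD rats. For GAPDH it was 2.1 on SH SO2 replicate 1 and 2.11 on SD air replicate 3. The part of RNA quality was not tested. SD air replicate 3 also had the highest summed signal of the heart and skeletal muscle list, 8105, and of the smooth muscle list, 12350, whose part in its high values was not tested. SD SO2 replicate 4 had the highest summed signals of alveolar type II (131100), club cell (44270) and alveolar type I (52010) markers. Their part in its low values was not tested. The per-array median of the members ran from 10.4 to 10.67 on the log2 scale, with group means of 10.57 ± 0.114 with air and 10.5 ± 0.0492 with SO2 in SH rats, and of 10.57 ± 0.095 and 10.5 ± 0.0776 in SD rats (SD, n = 4 each). The 4 groups overlapped.

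**Figure D4:**
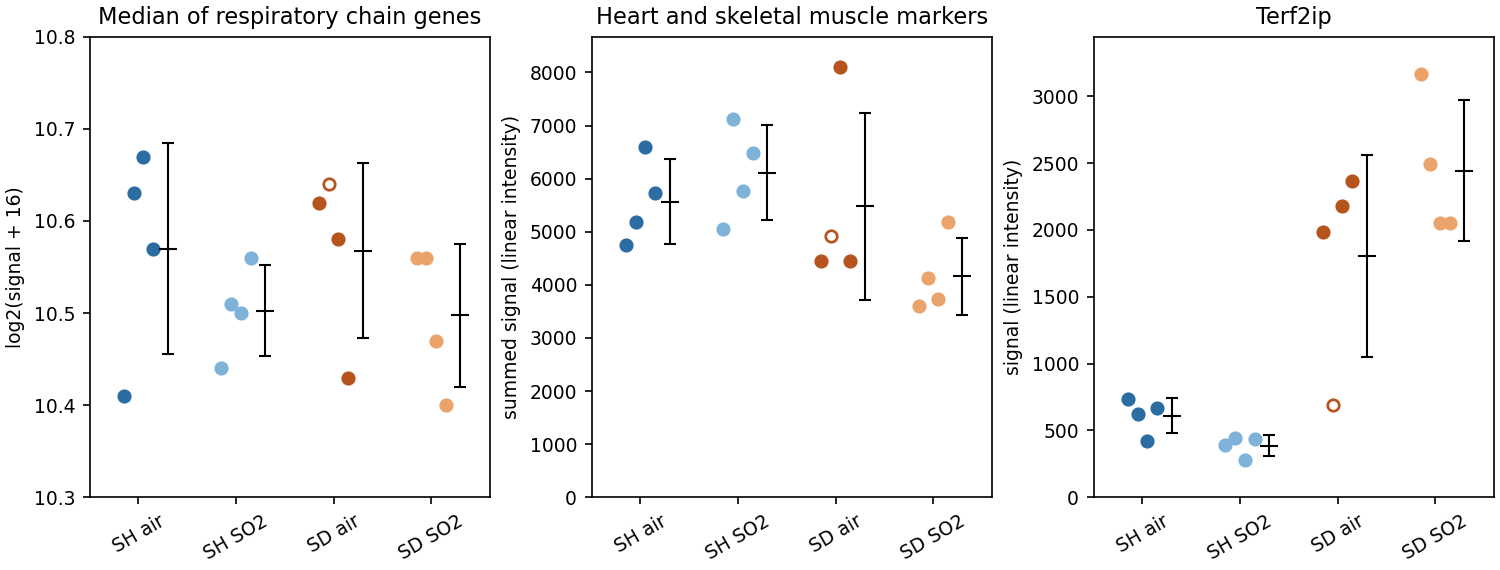
Values by array with mean and standard deviation bars of 4 arrays per group: the median log2(signal + 16) of the 86 member probe sets (axis not from 0), the summed signal of 23 heart and skeletal muscle markers, and the signal of Terf2ip. The open circle, SD air replicate 2, is at 693.8 for Terf2ip, within the SH air range, and SD air replicate 3 has the highest muscle marker sum, 8105.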

How the data were processed

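The deposited table gives a linear intensity for each probe set on 16 arrays (15923 probe sets, 57 of them controls, which were left out). GCOS is the tool named per the submitters' processing notes, without version or settings. The deposited scaling was kept, and detection calls were not used. Probe sets were named from the platform annotation, and all 89 member symbols were unchanged in a RefSeq table of assembly GRCr8.

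Values were taken as log2(intensity + 16), which makes changes of dim probe sets look smaller. Leaving out the dimmest 30% by mean kept 11106 probe sets. A first run took that mean on the linear scale. It was then changed to the mean log2 value, after results were seen, and the linear mean is kept as an alternative added after seeing the data. The tests were run in limma (version 3.58.1, R 4.3.3; lmFit, eBayes with a trend), with 4 group means, 12 residual degrees of freedom, Benjamini-Hochberg adjustment and a threshold of 0.05. Checks on simulated data were run first. There were 7 comparisons: SO2 against air in each strain and averaged over strains, the strain difference in that response, and SH against SD rats in air, in SO2 and averaged over exposures.

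The genes named were those called, the higher and lower member of smallest p in each complex and comparison, all Sdh genes, the complex IV isoforms, Suox, Cycs and Cyc1 whatever their values, and from each pathway list the genes of smallest p in either direction. Where a gene had several probe sets the one with the highest mean represents it. The members, lists, tests and naming rule were chosen with earlier results of these data known. The titles number the arrays serially over all groups, so replicates are numbered within a group in accession order, which pairs no arrays. Alternatives were offsets of 1 and 64, quantile normalization, centring on medians, no filter or 50% left out, a replicate block, eBayes without a trend, array weights, fewer arrays in the fit, title number or array quality as covariates, and each array left out. The number of arrays limits the precision. Marker lists for adipocytes, club, ciliated, alveolar type I, macrophage and erythroid cells were read as well. Plots were made in Python 3.11.15 with matplotlib 3.10.9.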

Additional observations from a re-analysis of the deposited data

Results flagged for a closer look

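The 4 values of each group were checked for a single distant array for the named genes (188 groups of 4), and 13 groups held one by Dixon's test, where chance gives about 1 in 20. SD air replicate 3 was high for Ndufb2 (2688.9, others 1579.6 to 1718.1), Uqcrfs1 (3150.4, others 2014.5 to 2148.8), Atp5f1d, the delta subunit of ATP synthase (3106.5, others 1951.9 to 2059.8), and Cox5b (2835.1, others 2291.2 to 2316.8), and low for Atp5mg, a membrane subunit of that enzyme (1911, others 2544.4 to 2629.8). SH air replicate 1 was low for Ndufab1 (720.1, others 1005.7 to 1063.1), Atp5mg (2256.2, others 2425 to 2442.2) and Uqcrfs1 (1772.7, others 1857.4 to 1858.2).

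Single arrays stood apart for 5 further genes. These were Cox6c in SD air replicate 4 (3307, others 4594.5 to 4721.9), Ndufa9 in SD air replicate 2 (940.2, others 794.4 to 804.6), Cox7c in SH air replicate 3 (3003.4, others 2665.6 to 2723.2), Sdha in SH SO2 replicate 4 (2052.9, others 1761.4 to 1798.4) and Pdhb in SD SO2 replicate 3 (1327.5, others 1517.2 to 1536.2).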

How the results depend on the processing

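The 7 median changes of the members were recomputed under 27 or 28 other analysis choices each. Of these, 16 left out an array in turn and 1 (the filter on mean linear signal) was added after seeing the data. All medians lay between -0.099 and 0.093, but not every sign was stable. The median ran from -0.071 to 0.024 for SO2 in SH rats and from -0.016 to 0.042 between strains in SO2. It ran from -0.050 to 0.002 between strains in air, and from 0.004 to 0.093 for the strain difference in response. Over 28 or 29 choices the count of members called stayed at 0 for the 3 comparisons of SO2 response and for SO2 averaged over strains. For the strain difference within air and within SO2 it was 0 to 1 when arrays were left out in turn, with 1 (Cox7a1) without SD air replicate 2. Averaged over exposures it was 0 to 2 when arrays were left out, with 0 without SH air replicate 3 and 2 without SD SO2 replicate 2, and 0 with the title number as a covariate. Cox7a1 was called in 26 of 28 alternatives there, with values of -0.67 to -0.51 and adjusted p-values of 0.000993 to 0.153, the largest with the title number (-0.52). The cause was not tested. No paired analysis was possible because the titles number the arrays serially and give groups no shared replicate number. A fit planned with accession order as a replicate block left Cox7a1 at -0.58 (adjusted p = 0.0319) and the counts of members called as they were, and put Pdhb at an adjusted p of 0.0921, but it tests no pairing that the labels give. The count of members at an unadjusted p under 0.05 moved with single arrays, to 0 to 4 for SO2 in SH rats, 3 to 7 in SD rats, 2 to 5 for their difference, 0 to 4 averaged over strains, and 4 to 10 and 3 to 9 between strains in air and in SO2. For single genes, 5868 values kept sign and side of the threshold, 260 uncalled ones changed sign, 19 lost a call and 3 gained one.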
